A study of Mus musculus with 4 samples.

Results

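A set of 8 water and ion transport genes was followed through the epithelial lineages of mouse mammary organoids. They were the aquaporins Aqp5 and Aqp3, the cotransporter Slc12a2, the channels Kcnn4, Cftr and Scnn1a, the channel regulator Clca3a2, and Atp1b1, a subunit of the sodium pump. They were chosen by name as a set of fluid transport genes, with earlier results of these data known, and 8 of 8 were found among the 32285 genes counted. Organoids are small 3-dimensional cultures grown from mammary epithelial cells. They came from virgin female mice of 9 to 11 months that were wild type (WT) or carried 1 Brca2 allele truncated in the germline (Brca2mut/WT), so that every cell of the animal has the mutation, and the WT mice were littermates. Each genotype was grown without treatment (control) or with hydroxyurea (HU), which stalls DNA replication, at 1 mM for 24 h in each passage followed by 4 days of recovery. Frozen organoids of passage 0 and passage 4 were thawed, cultured for 3 days and dissociated, and 4 droplet libraries of single cells were made, 1 for each combination of genotype and treatment.

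The labels state neither the passage nor the mice behind a library. The sample titles give 2 replicates per library, and 4 antibody tags were counted with no key to them. Cells that carried 1 tag were therefore treated as 4 unlabelled pools within a library, which were given as values, with no test, and a pool number was not taken to mean the same mouse or passage in different libraries. With 1 library per condition, HU was compared with control within each genotype by counts and ratios, with 95% intervals that cover counting error only.

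Secretory epithelia move water by moving salt. The sodium pump keeps sodium low and potassium high in the cell, the basolateral cotransporter Slc12a2 (NKCC1) uses the sodium gradient to load chloride, apical chloride channels let the chloride out, potassium channels hold the voltage that drives it, and water follows through aquaporins. Absorption runs the other way through the epithelial sodium channel. In the mammary gland the luminal cells face the lumen into which milk is secreted, and the basal (myoepithelial) cells surround them and contract. The hormone receptor negative (HR-) luminal cells are regarded as the milk-producing branch of the lineage, and the hormone receptor positive (HR+) luminal cells as the hormone-sensing branch.

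The libraries held 7639 to 9358 barcodes with 2.4343e+08 to 3.02135e+08 gene UMIs (unique molecular identifiers, the molecules counted). A filter of 1000 to 6000 detected genes and under 5% mitochondrial UMIs kept 17360 of 33268 barcodes, whereas the series text states 34200 cells. Per library, 3293 to 5312 cells were kept, with a median of 24180 to 26893 UMIs. Of the kept cells, 15866 carried 1 tag, 491 several tags and 1003 none, and 129 barcode sequences occurred in more than 1 library, 40 of them among kept cells. Basal cells were those with at least 500 CPM of Krt14 (CPM is the UMIs of a gene scaled to the total gene UMIs of the cell or sum), HR+ luminal cells those with at least 300 CPM of Areg, and HR- luminal cells those below 300 CPM for both. This gave 14008 HR- luminal cells (2750 to 4209 per library), 569 HR+ luminal cells (123 to 176) and 2217 basal cells (320 to 868), with 109 cells past both thresholds and 457 in no class. Near the thresholds lay 721 cells with 250 to 500 CPM of Krt14, 466 with 500 to 1000, 185 with 150 to 300 CPM of Areg and 165 with 300 to 600.

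The lineages were checked against other markers. A list of 7 basal markers (such as Krt5, Trp63 and Acta2) summed to 3263 to 3737 CPM in basal cells, against 95.1 to 131 in HR- luminal and 41.0 to 67.2 in HR+ luminal cells. A list of 8 HR- luminal markers (such as Elf5, Kit and Csn3) summed to 25323 to 29931 CPM in HR- luminal cells, against 1500 to 2901 in HR+ luminal and 2786 to 3939 in basal cells. Most of the HR- luminal sum was Csn3, at 18297 to 21471 CPM. Aldh1a3 of this list went the other way, with 108% to 349% of its HR- luminal level in HR+ luminal cells. A list of 6 HR+ luminal markers (such as Prlr, Foxa1 and Pgr) summed to 1506 to 1727 CPM in HR+ luminal cells, 110 to 116 in HR- luminal and 57.4 to 84.2 in basal cells. Immune markers stayed at or below 0.711 CPM and endothelial markers at or below 2.13 CPM in each lineage sum. A list of 5 keratinizing markers (such as Krt10 and Krtdap) summed to 157 to 311 CPM in basal cells. It summed to 20.1 to 27.7 CPM in HR- luminal and 17.3 to 32.0 CPM in HR+ luminal cells. The fibroblast list reached 704 to 1661 CPM in HR+ luminal cells, where 4 of its 5 genes were under 1 CPM in each library and nearly the whole sum was Dcn. When the cells were clustered without the fluid transport genes, Krt14 and Areg, cluster 3 stood apart within the HR- luminal class, with 74.8 CPM of Trp63 and 554 CPM of Acta2. It supplied 8.18% to 9.60% of the HR- luminal cells of a library. The model fits and the HU ratios within each genotype were therefore also computed without clusters of at least 30 CPM of Trp63, cluster 3 among them. The genotype ratios, tag pool levels, detection shares, correlations and cycling ratios were computed with it only.

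Promoter windows are shown for the member with the largest difference towards basal cells over HR- luminal cells (Aqp3) and for Kcnn4, which was higher in HR- luminal than in either other lineage. They are the 250 bases before the RefSeq gene start on GRCm38.p6, written 5′ to 3′ on the strand of the gene. Of the 8 genes, 6 had a promoter entry. A set of 5 motifs was searched on both strands, and capitals mark their matches: TATAAA, which 12.4% of 32851 promoter windows of this length held, CCAAT (33.8%), GGGCGG (32.7%), CACGTG (6.02%) and TTCNNNGAA (7.02%), where N is any base. None of these motifs overlapped another in the windows shown.
Kcnn4, chr7:24370013-24370262, plus strand: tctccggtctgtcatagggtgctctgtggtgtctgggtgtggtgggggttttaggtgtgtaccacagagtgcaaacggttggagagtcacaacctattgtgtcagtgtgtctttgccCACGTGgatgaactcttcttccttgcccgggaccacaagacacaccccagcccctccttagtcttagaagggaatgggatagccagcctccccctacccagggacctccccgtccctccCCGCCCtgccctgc
Aqp3, chr4:41098184-41098433, minus strand: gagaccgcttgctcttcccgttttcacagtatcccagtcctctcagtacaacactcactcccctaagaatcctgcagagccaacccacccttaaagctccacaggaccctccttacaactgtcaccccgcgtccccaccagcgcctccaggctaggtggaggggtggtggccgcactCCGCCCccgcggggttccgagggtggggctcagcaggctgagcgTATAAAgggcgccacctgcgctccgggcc

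The Aqp3 window held TATAAA at 29 bases before the start and GGGCGG, read on the other strand as CCGCCC, at 73 bases. The Kcnn4 window held GGGCGG on the other strand at 14 bases and CACGTG at 133 bases. The GC content was 58.8% for Kcnn4 and 64% for Aqp3, against a median of 52.4% over the promoter windows. A match to these letters is a description and was not tested as a binding site.

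Aqp5 (ENSMUSG00000044217, chromosome 15 of GRCm38, 99590782 to 99594829, plus strand) encodes an apical water channel of secretory glands. In HR- luminal cells its level was 2084 CPM in WT control, 1897 in WT HU, 2405 in Brca2mut/WT control and 2111 in Brca2mut/WT HU. HR+ luminal cells had 586, 386, 399 and 489 CPM in the same order, and basal cells 348, 218, 277 and 185 CPM. The lowest HR- luminal library lay above the highest library of either other lineage, and HR+ luminal lay above basal in each library. Lineages were tested in 1 model over the 12 sums of 3 lineages in 4 libraries, with the library as a term (edgeR's quasi-likelihood test with Benjamini-Hochberg adjustment over 13249 genes). The p-values measure how the lineage differences vary over 4 libraries of different conditions. Aqp5 was higher in HR- luminal than in basal cells by 3.21 on the log2 scale (SE 0.14, adjusted p = 7.64e-09) and than in HR+ luminal cells by 2.39 (SE 0.14, adjusted p = 5.72e-08). HR+ luminal cells exceeded basal cells by 0.82 (SE 0.13, adjusted p = 0.000351). The HR+ luminal class was mixed, and some of its cells lay outside the HR+ cluster (cluster 9). Aqp5 had 517, 291, 344 and 450 CPM inside that cluster and 840, 634, 690 and 743 CPM outside it, in the same order of libraries.

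Aqp3 (ENSMUSG00000028435, chromosome 4, 41092722 to 41098183, minus strand) encodes an aquaporin that also passes glycerol and is known from the basal layers of stratified epithelia. It was found mainly in basal cells, with 158 CPM in WT control, 101 in WT HU, 76.1 in Brca2mut/WT control and 74.4 in Brca2mut/WT HU. HR- luminal cells had 0.973, 1.12, 0.635 and 0.831 CPM in the same order. The pattern was thus opposite to that of Aqp5, and basal cells exceeded HR- luminal cells in every library. HR- luminal cells were lower than basal cells by 6.74 on the log2 scale in the edgeR model (log2 difference -6.74, SE 0.44, adjusted p = 1.66e-07). HR+ luminal cells had 2.84, 34.4, 2.64 and 5.49 CPM. The WT HU value stood apart, and 93 of its 131 UMIs came from 1 cell (71.0%) and 111 from 2 cells (84.7%). The log2 difference between HR+ luminal and basal cells was -3.32 (SE 0.47, adjusted p = 0.000127).

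Slc12a2 (ENSMUSG00000024597) encodes the sodium, potassium and chloride cotransporter NKCC1. It was highest in HR+ luminal cells, with 1212 CPM in WT control, 1118 in WT HU, 1323 in Brca2mut/WT control and 1187 in Brca2mut/WT HU. HR- luminal cells had 202, 206, 398 and 289 CPM, and basal cells 94.4, 55.4, 83.1 and 67.4 CPM. The 3 lineages did not overlap, and the HR- luminal level was the only one of the 3 in which both Brca2mut/WT libraries lay above both WT libraries. HR+ luminal cells were higher than basal cells by 3.97 on the log2 scale (SE 0.17, adjusted p = 2.10e-08, edgeR). HR- luminal cells were higher than basal cells by 1.97 (SE 0.16, adjusted p = 8.12e-07) and lower than HR+ luminal cells (log2 difference -2.0, SE 0.16, adjusted p = 6.42e-07). Aqp5 and Slc12a2 were therefore highest in different luminal lineages.

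Atp1b1 (ENSMUSG00000026576, chromosome 1, 164437109 to 164458355, minus strand) encodes the beta 1 subunit of the sodium pump, which brings the catalytic subunit to the membrane. Its level was 126, 127, 148 and 113 CPM in HR- luminal cells, 137, 88.7, 188 and 105 CPM in HR+ luminal cells and 26.7, 20.9, 32.3 and 29.2 CPM in basal cells, in the order WT control, WT HU, Brca2mut/WT control and Brca2mut/WT HU. The luminal lineages overlapped, and both lay above basal cells in each library. HR- luminal exceeded basal cells by 2.39 on the log2 scale (SE 0.14, adjusted p = 5.11e-08, edgeR) and HR+ luminal exceeded basal cells by 2.18 (SE 0.14, adjusted p = 3.46e-07). The difference between the luminal lineages was 0.21 (SE 0.13, adjusted p = 0.166), which did not pass the test.

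Kcnn4 (ENSMUSG00000054342, chromosome 7, 24370263 to 24386690, plus strand) encodes a calcium-activated potassium channel of intermediate conductance. HR- luminal cells had 239, 282, 316 and 273 CPM, HR+ luminal cells 102, 78.8, 112 and 65.5 CPM, and basal cells 88.1, 86.9, 62.9 and 58.4 CPM in the same order. HR- luminal cells stood above both other lineages, which overlapped. The log2 difference was 2.04 over basal cells (SE 0.15, adjusted p = 4.06e-07, edgeR) and 1.83 over HR+ luminal cells (SE 0.16, adjusted p = 1.35e-06). That between HR+ luminal and basal cells was 0.21 (SE 0.16, adjusted p = 0.292) and did not pass.

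Clca3a2 (ENSMUSG00000028262, chromosome 3, 144796559 to 144819494, minus strand) belongs to the CLCA family, secreted or membrane proteins that regulate calcium-activated chloride channels. HR- luminal cells had 1602, 1319, 1264 and 1391 CPM, HR+ luminal cells 291, 86.9, 105 and 87.1 CPM, and basal cells 137, 106, 128 and 122 CPM. The HR- luminal libraries lay far above the rest. Of the UMIs of the HR+ WT control sum, 25.2% came from 1 cell, and its cells outside the HR+ cluster had 869 CPM, against 133 CPM inside it. The log2 difference of HR- luminal cells was 3.64 over basal cells (SE 0.24, adjusted p = 1.59e-07, edgeR) and 3.61 over HR+ luminal cells (SE 0.24, adjusted p = 2.14e-07), and that of HR+ luminal over basal cells was 0.03 (SE 0.23, adjusted p = 0.937). Its neighbour and family member Clca3a1 (chromosome 3, 144729677 to 144760977, minus strand) had 20.3, 12.9, 15.3 and 14.9 CPM in HR- luminal cells. Reads of the pair may be split between them in a way that the counts do not show, and both values are uncertain to that extent.

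Scnn1a (ENSMUSG00000030340, chromosome 6, 125320659 to 125344943, plus strand) encodes the alpha subunit of the epithelial sodium channel, which absorbs sodium. It was highest in HR+ luminal cells, with 18.5, 29.4, 29.7 and 41.0 CPM, against 3.14, 2.42, 2.30 and 2.55 CPM in HR- luminal and 4.49, 3.34, 3.73 and 7.02 CPM in basal cells. The genes Scnn1b and Scnn1g of the same family reached at most 0.948 and 0.330 CPM in HR+ luminal cells. HR+ luminal cells exceeded HR- luminal cells in each library (log2 difference of HR- luminal against HR+ luminal -3.28, SE 0.23, adjusted p = 2.46e-07, edgeR) and basal cells (2.65, SE 0.25, adjusted p = 5.16e-06). HR- luminal cells were lower than basal cells (-0.63, SE 0.24, adjusted p = 0.0346). That last call was lost in 4 of 16 alternatives, with adjusted p from 0.00840 to 0.175 over all settings, among them the one without the Brca2mut/WT control library and the one without the Brca2mut/WT HU library (-0.42).

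Cftr (ENSMUSG00000041301, chromosome 6, 18170687 to 18322768, plus strand) encodes the cyclic AMP regulated chloride channel. It was close to the limit of counting, with 56 UMIs in 45 of the 17360 kept cells. HR- luminal cells had 24, 10, 7 and 10 UMIs (0.231, 0.116, 0.0809 and 0.141 CPM). HR+ luminal cells had 2 UMIs, both in WT HU. Basal cells had 0 UMIs in each library, which allows up to 0.192, 0.157, 0.447 and 0.421 CPM. Cftr did not pass the filter for the lineage model. Expression in basal cells was thus not detectable at this depth, and the 2 UMIs of HR+ luminal cells (0.525 CPM) lay under the floor of 3 counts (0.788 CPM).

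**Figure D1:**
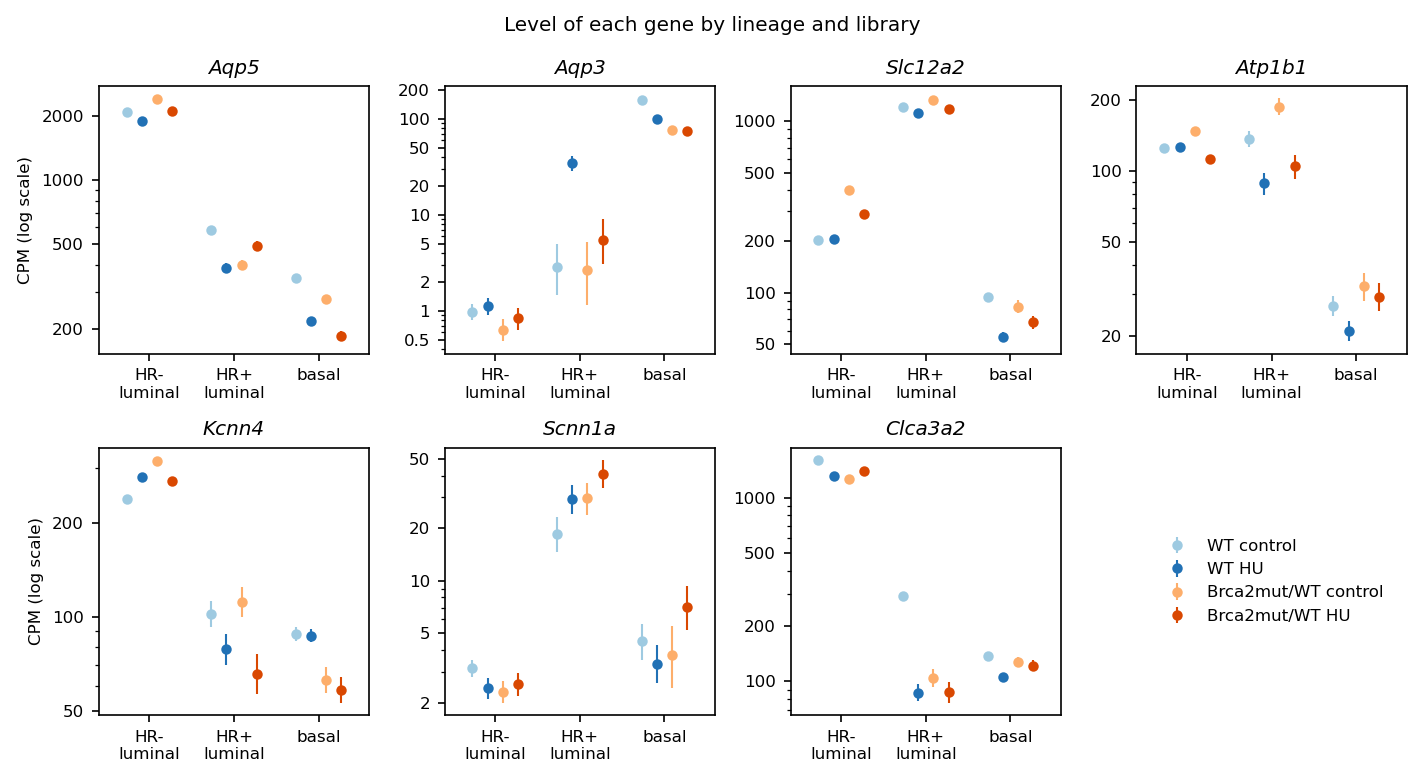
Level of each gene in CPM (log scale) in HR- luminal, HR+ luminal and basal cells of the 4 libraries; points are lineage sums, bars are 95% Poisson intervals, and Cftr is left out. Aqp5, Clca3a2 and Kcnn4 are highest in HR- luminal cells, Slc12a2 and Scnn1a in HR+ luminal cells and Aqp3 in basal cells.

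In the edgeR model 7 of 7 tested members differed between HR- luminal and basal cells, where 65.7% of all genes tested were called, so a call between lineages was common. Between HR- luminal and HR+ luminal cells 6 of 7 were called (65.4% of all genes), and between HR+ luminal and basal cells 5 of 7 (54% of all genes). The median log2 difference of the 7 members was 2.04 for HR- luminal against basal cells, 0.21 for HR- against HR+ luminal cells and 0.82 for HR+ luminal against basal cells, while over all genes it was 0.01, 0.05 and -0.04. The members were chosen with earlier results of these data known, so these counts and medians describe them and are no test of the set.

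The remaining genes of a list of 54 water, chloride, bicarbonate, sodium and potassium transport genes were divided in direction. Of the 36 tested, 27 were called between HR- luminal and basal cells (65.7% of all genes), 15 higher and 12 lower in HR- luminal cells. Between HR- and HR+ luminal cells 28 were called (65.4% of all genes), 15 higher and 13 lower in HR- luminal cells. Between HR+ luminal and basal cells 21 were called (54% of all genes), 15 higher and 6 lower in HR+ luminal cells. Over all genes the calls were divided too, with 4419 higher and 4291 lower, 4527 and 4138, and 3532 and 3619 in these comparisons. The highest differences of HR- luminal over basal cells were those of the kinase Wnk4, which controls cation chloride cotransporters (3.26, SE 0.19, adjusted p = 7.67e-08, edgeR), the calcium-activated chloride channel Ano1 (2.88, SE 0.08, adjusted p = 6.83e-10) and the water channel Aqp2 (2.85, SE 0.33, adjusted p = 1.61e-05). Ano1 had 255, 263, 286 and 283 CPM in HR- luminal cells and 45.3, 32.7, 41.4 and 42.9 CPM in basal cells, whereas Aqp2 reached at most 5.34 CPM. The highest differences towards basal cells were those of the glycerol and water channel Aqp9 (-5.92, SE 0.22, adjusted p = 2.63e-09), the potassium chloride cotransporter Slc12a4 (-3.29, SE 0.32, adjusted p = 3.58e-06) and Fxyd4, a small regulator of the sodium pump (-2.77, SE 0.26, adjusted p = 2.50e-06). Aqp9, like Aqp3, was found mainly in basal cells, at 9.04 to 15.4 CPM against 0.139 to 0.210 CPM in HR- luminal cells.

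Basal cells were not free of transcripts that HR- luminal cells carry in large amounts. The basal level as a share of the HR- luminal level of the same library was 8.78% to 16.7% for Aqp5, 8.03% to 10.1% for Clca3a2, 16.5% to 25.9% for Atp1b1, 19.9% to 36.8% for Kcnn4 and 20.9% to 46.7% for Slc12a2. For the 8 HR- luminal markers it was 2.47% to 5.17% for the milk protein gene Lalba, 2.75% to 8.10% for the receptor gene Kit, 6.18% to 8.34% for the milk protein gene Csn3, 9.75% to 13.7% for the transcription factor Elf5, 13.3% to 19.1% for Mfge8, 16.8% to 32.3% for Cd14, 19.5% to 56.1% for Aldh1a3 and 30.9% to 49.3% for Wfdc18. The ranges of the 5 members thus lay within the span of these markers, and the shares do not set any of them apart from the markers. With cells thinned to 5000 UMIs, an Aqp5 UMI was found in 94.9% to 96.3% of HR- luminal, 59.3% to 78.5% of HR+ luminal and 39.8% to 59.0% of basal cells. A Csn3 UMI was found in 90.8% to 98.0% of basal cells, so a share of basal cells with an Aqp5 UMI was not read as expression. Thinning left out 732, 67 and 177 cells of the 3 lineages, and without it the shares for Aqp5 were 97.8% to 99.0%, 87.7% to 97.7% and 74.9% to 90.8%. The median cell had 24718 to 27595.5 UMIs in HR- luminal and 20026 to 22130 in basal cells. Aqp3 differed from this background, with a UMI in 12.5% to 19.8% of thinned basal cells and 0.157% to 0.539% of HR- luminal cells (18.1% to 37.6% and 0.582% to 2.30% unthinned). The part that free RNA has in the basal levels was not tested.

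The effect of HU within each genotype was then described in HR- luminal cells. A gene was counted as past 1.5-fold when its log2 ratio of CPM plus 1 reached that size and it had at least 20 CPM in 1 of the 2 libraries. This was met by 0 of 5 members in WT, where 1.04% of 5380 genes passed, and by 0 of 5 in Brca2mut/WT, where 0.988% of 5468 genes passed. Aqp3, Scnn1a and Cftr were under 20 CPM. The log2 ratio of HU against control for Aqp5 was -0.14 (95% interval -0.14 to -0.13) in WT and -0.19 (-0.20 to -0.18) in Brca2mut/WT, lower with HU in both genotypes, but the Brca2mut/WT ratio was 0.09 without pool 2 of the control. For Slc12a2 it was 0.03 (0.00 to 0.06) in WT, with -0.26 to 0.19 when single tag pools were left out, and -0.46 (-0.49 to -0.44) in Brca2mut/WT. Atp1b1 had 0.01 (-0.03 to 0.04) and -0.39 (-0.43 to -0.35). Kcnn4 had 0.24 (0.21 to 0.26) and -0.21 (-0.24 to -0.18), and Clca3a2 had -0.28 (-0.29 to -0.27) and 0.14 (0.13 to 0.15). Kcnn4 and Clca3a2 thus had opposite signs in the genotypes with all cells. The signs depended on single tag pools, since the Brca2mut/WT ratio of Kcnn4 was 0.11 without pool 2 of the control, and that of Clca3a2 was -0.04 without the same pool and -0.09 without pool 3 of HU. For both genes each difference was smaller than the range over the tag pools of its libraries.

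**Figure D2:**
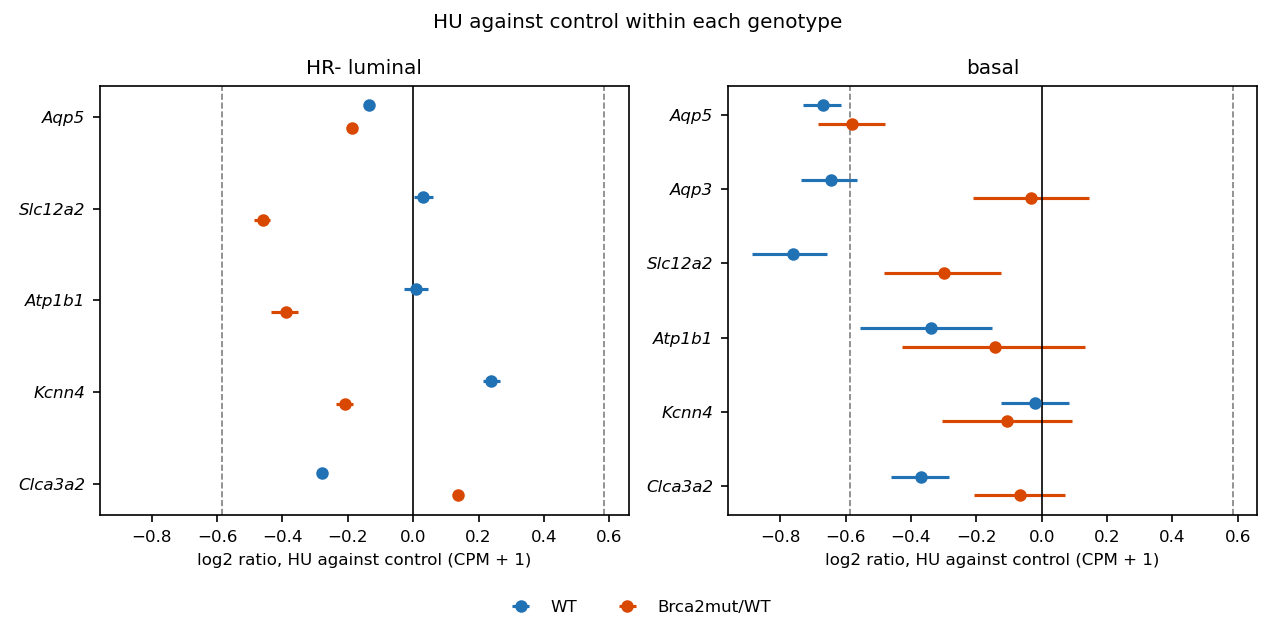
Log2 ratio of HU against control for WT and Brca2mut/WT in HR- luminal and basal cells; points are ratios of CPM plus 1, bars are 95% intervals from counting alone, and dashed lines mark 1.5-fold. In HR- luminal cells each point lies inside the lines, and in basal cells Aqp5, Aqp3 and Slc12a2 of WT lie beyond the lower one.

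A model of HU over both genotypes, with genotype as a term, was fitted to the 4 HR- luminal sums, with 1 library in each cell of the design. This model left 1 residual degree of freedom per gene, so an HU effect that differs between the genotypes counts as error in it. It called 842 of 15611 genes (5.39%) and 0 of the 8 members (edgeR, adjusted p from 0.259 to 0.964), and 0 members had an unadjusted p under 0.05. DESeq2 and the other alternatives also called 0 members. Cftr was among the 8 with only 7 to 24 UMIs per sum. For these reasons the count of 0 was not read as absence of an HU effect. Atp1b1 came nearest, at -0.19 (SE 0.09, adjusted p = 0.259), followed by Slc12a2 at -0.22 (SE 0.11, adjusted p = 0.271), and Aqp5 was at -0.16 (SE 0.11, adjusted p = 0.410). Of the 41 other list genes tested, 4 were called, and 3 of them are named here after their values were seen. Fxyd4 fell by 0.66 on the log2 scale (SE 0.10, adjusted p = 0.00311), from 10.9 to 7.76 CPM in WT and from 9.35 to 5.21 CPM in Brca2mut/WT, and Nedd4l, a ubiquitin ligase that removes the epithelial sodium channel, fell by 0.29 (SE 0.07, adjusted p = 0.0336). Wnk4 rose by 0.33 (SE 0.08, adjusted p = 0.0384). Fxyd4 was higher in HR+ luminal cells (40.3 to 101 CPM) and basal cells (33.6 to 98.6 CPM), and this model was not fitted to those lineages.

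Of the list genes that reached 20 CPM, 2 of 15 passed 1.5-fold with HU in WT and 0 of 14 in Brca2mut/WT. Over all genes in HR- luminal cells, 1.04% of 5380 passed in WT and 0.988% of 5468 in Brca2mut/WT. Kcne3, a potassium channel subunit, went from 32.6 to 81.6 CPM in WT (log2 ratio 1.29, 95% interval 1.26 to 1.38) and from 46.4 to 45.4 CPM in Brca2mut/WT (-0.03, -0.10 to 0.03). The WT HU value was uneven over its tag pools, with 46.9, 149, 42.2 and 210 CPM in pools 1 to 4, and the edgeR model over both genotypes gave 0.65 (SE 0.21, adjusted p = 0.101). Clca3a1 went from 20.3 to 12.9 CPM in WT (log2 ratio -0.61, -0.76 to -0.54).

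Between the genotypes, Slc12a2 had the largest ratio of the 5 members compared. Under control conditions 1 of 5 members passed 1.5-fold between Brca2mut/WT and WT in HR- luminal cells, where 0.795% of 5410 genes passed, and that was Slc12a2 at 0.97 (95% interval 0.953 to 1.003). Kcnn4 was at 0.40 (0.38 to 0.43), Atp1b1 at 0.23 (0.20 to 0.27), Aqp5 at 0.21 (0.20 to 0.22) and Clca3a2 at -0.34 (-0.35 to -0.33). With HU, 0 of 5 passed (0.852% of 5401 genes), and Slc12a2 was at 0.48 (0.46 to 0.51).

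The level of Slc12a2 was uneven over the tag pools. In HR- luminal cells Slc12a2 had 213, 1140, 168 and 220 CPM in pools 1 to 4 of Brca2mut/WT control and 216, 847, 169 and 218 CPM in those of Brca2mut/WT HU. In WT control it had 142, 553, 175 and 329 CPM and in WT HU 177, 211, 183 and 418 CPM. Pool 2 thus stood far above the other 3 pools in both Brca2mut/WT libraries, while pools 1 and 3 were between 142 and 216 CPM in all 4 libraries. Pool 2 held 735 HR- luminal cells (20.5% of the class) in Brca2mut/WT control and 422 (15.3%) in Brca2mut/WT HU.

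Without pool 2 of both Brca2mut/WT libraries, a choice made after its values were seen, the log2 ratios of Slc12a2 moved close to 0. Taking the highest pool from these libraries alone, with the high WT pools kept, can only lower the genotype ratio, so its fall is a description of what the pool contributes and no test of a genotype difference. The HU ratio in Brca2mut/WT went from -0.46 to -0.02 (95% interval -0.05 to 0.02), the genotype ratio from 0.97 to -0.04 (-0.07 to -0.01) in control and from 0.48 to -0.09 (-0.12 to -0.06) with HU. Leaving the pool out of 1 library alone moved the HU ratio both ways, to 0.56 without pool 2 of the control and to -1.04 without pool 2 of HU, which passed 1.5-fold. The HU ratio also passed without pool 1 (-0.73) or pool 3 (-0.79) of Brca2mut/WT control. For Kcnn4 the HU ratio in Brca2mut/WT became -0.11 (-0.14 to -0.08) without pool 2 of both libraries, for Aqp5 -0.08 (-0.10 to -0.07), for Clca3a2 0.07 (0.06 to 0.08) and for Atp1b1 -0.32 (-0.37 to -0.28).

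**Figure D3:**
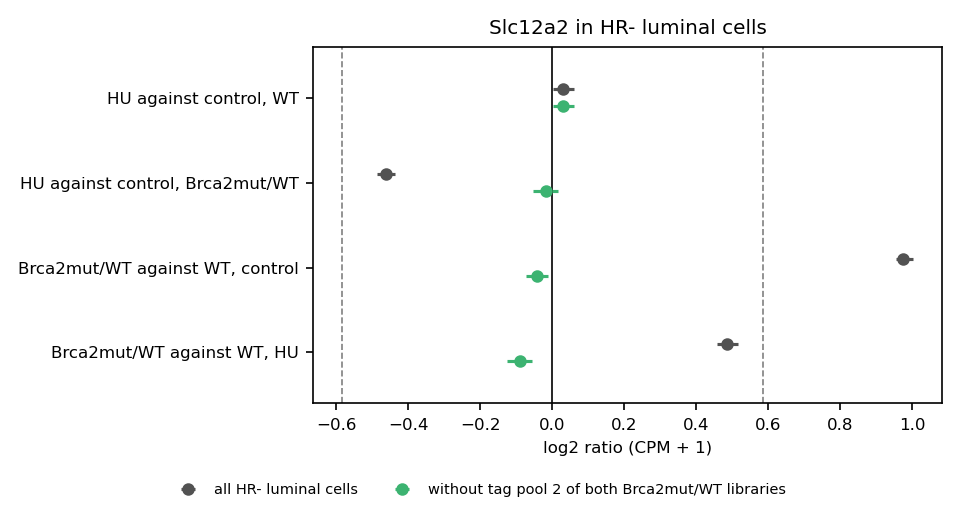
Log2 ratios of Slc12a2 in HR- luminal cells with all cells and without tag pool 2 of both Brca2mut/WT libraries; points are ratios of CPM plus 1, bars are 95% intervals from counting alone, and dashed lines mark 1.5-fold. The ratio of Brca2mut/WT to WT in control is 0.97 with the pool and -0.04 without it.

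The same pool was the highest for Aqp5 and Kcnn4. Aqp5 had 2285, 3970, 1920 and 1542 CPM in pools 1 to 4 of Brca2mut/WT control, 1987, 3540, 1896 and 1002 CPM in Brca2mut/WT HU, 2120, 2288, 1941 and 2361 CPM in WT control and 2269, 1296, 2013 and 1695 CPM in WT HU. Kcnn4 had 547 and 499 CPM in pool 2 of the Brca2mut/WT libraries, against 220 to 348 CPM in their other pools. WT control showed a like pattern for Kcnn4, with 472 CPM in pool 2 and 378 CPM in pool 4, against 198 and 206 CPM in pools 1 and 3.

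Clca3a2 followed another order. Pools 1 and 3 held 1515 to 1841 CPM in the 4 libraries, and pools 2 and 4 held less in every library, 1141 and 1401 CPM in WT control, 507 and 411 in WT HU, 643 and 579 in Brca2mut/WT control and 719 and 156 in Brca2mut/WT HU. This grouping of tag numbers was made after the values were seen, and how many other genes follow it was not counted. Csn3 fell in the same order, with 20330 to 24198 CPM in pools 1 and 3 and 5348 to 16129 CPM in pools 2 and 4. Atp1b1 ranged from 77.0 to 187 CPM over the 16 pools.

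**Figure D4:**
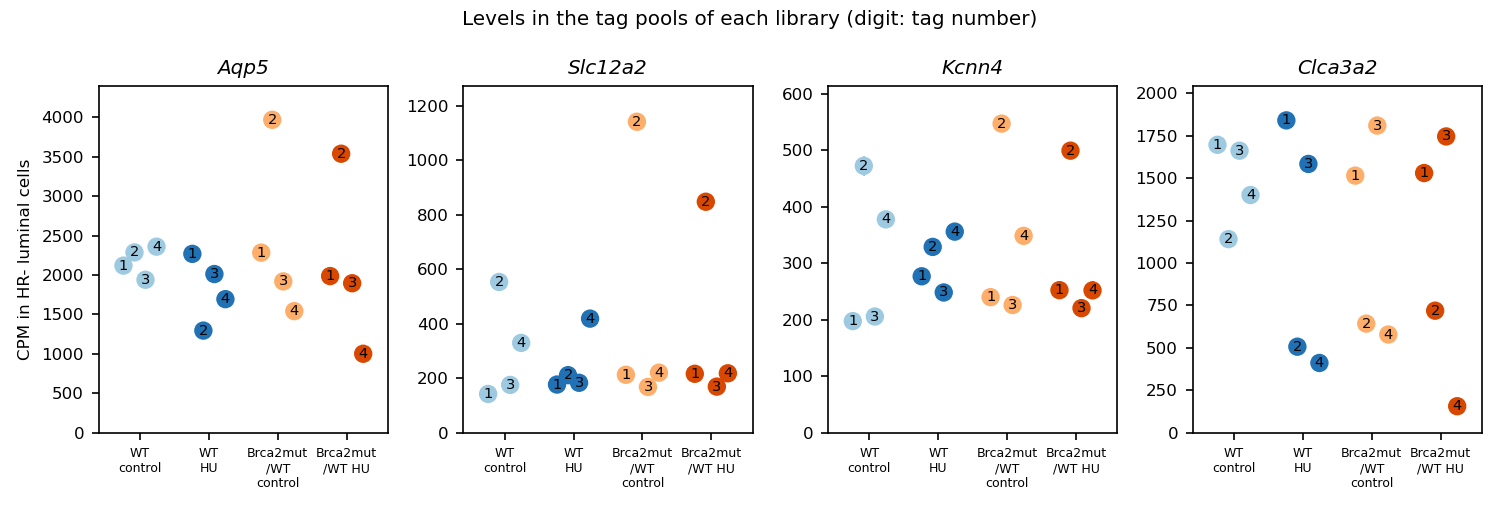
CPM of Aqp5, Slc12a2, Kcnn4 and Clca3a2 in HR- luminal cells of each antibody tag pool; each point is 1 pool of 1 library, labelled with its tag number. Pool 2 of both Brca2mut/WT libraries is the highest for Slc12a2, at 1140 and 847 CPM, and pools 1 and 3 are above pools 2 and 4 for Clca3a2 in each library.

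Likeness over these 16 pools was measured with Pearson's r of log2(CPM + 1) over 5285 genes with at least 20 CPM, as a description of points that share libraries and cell composition. The genes most like Aqp5 were Gramd1a (r = 0.96), Afap1l1 (0.96), Txndc12 (0.95), Sh3bp5 (0.95) and Rabepk (0.93). Those most like Slc12a2 were Chpt1 (0.98), Tmigd1 (0.98), Sec23b (0.98), Cmas (0.98) and Lactb2 (0.98), and Tmigd1 ran from 3.96 to 476 CPM over the pools. Among the members, Slc12a2 had r = 0.92 with Kcnn4, 0.63 with Aqp5, 0.40 with Atp1b1 and -0.35 with Clca3a2.

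The HR- luminal cells were also divided by cluster. Over the 14 HR- luminal clusters of 21, Aqp5 ran from 161 CPM in cluster 20 to 3706 in cluster 17, a cluster with 249 CPM of the cycling marker Mki67. Cluster 20 was placed in this class by its Krt14 (238 CPM) and Areg (253 CPM) alone, and its HR- luminal markers were low. It had 1113 CPM of Csn3, against at least 9343 in the other HR- luminal clusters, and 6.12 CPM of Elf5. Of its 103 cells, 66 were HR- luminal, so its low ends are not those of a clear HR- luminal cluster. Slc12a2 ran from 53.2 CPM in cluster 3 to 881 in cluster 4, Kcnn4 from 83.5 CPM in cluster 20 to 521 in cluster 4, Clca3a2 from 47.9 CPM in cluster 20 to 2002 in cluster 1, and Atp1b1 from 41.2 to 182 CPM. Cluster 4, with 1392 cells and 379 CPM of the tetraspanin gene Tspan8, was thus the highest for both Slc12a2 and Kcnn4 and had 3570 CPM of Aqp5. It held 76.6% of the HR- luminal cells of pool 2 in Brca2mut/WT control, 63.3% in Brca2mut/WT HU, 44.4% and 34.0% of pools 2 and 4 in WT control, and at most 17.99% of any other pool.

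Within cluster 4 the levels also differed between the libraries. Slc12a2 had 522 CPM in WT control, 498 in WT HU, 1184 in Brca2mut/WT control and 897 in Brca2mut/WT HU, and Clca3a2 had 2129, 2328, 807 and 987 CPM. Aqp5 had 3039, 2908, 3962 and 3746 CPM and Kcnn4 481, 464, 548 and 541 CPM, in the same order. The cells of cluster 4 came from different tag pools. Pool 2 supplied 563 of its 623 HR- luminal cells in Brca2mut/WT control and 267 of 306 in Brca2mut/WT HU. In WT control pools 2 and 4 supplied 96 and 145 of 299. Pool and genotype could not be told apart here, and a genotype difference within the cluster was not tested. Cluster 3, which carried basal markers, had 53.2 CPM of Slc12a2, 84.5 of Kcnn4 and 676 of Aqp5, below the medians over the HR- luminal clusters of 174, 291 and 1936 CPM, but 1544 CPM of Clca3a2, above its median of 1312 CPM. Clusters 5 and 14 had a median of only 3631 and 4755 UMIs per cell.

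**Figure D5:**
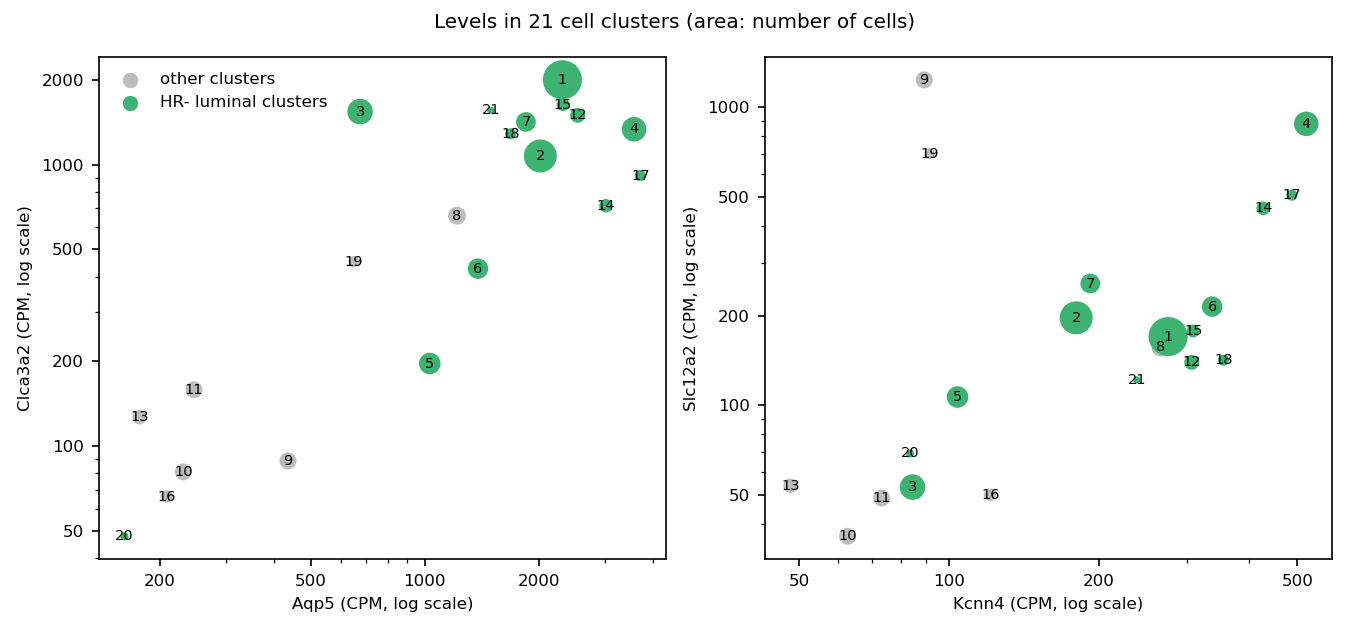
Levels of Aqp5 against Clca3a2 and of Kcnn4 against Slc12a2 in 21 cell clusters, in CPM on log scales; each circle is 1 cluster over all libraries and its area follows the number of cells. Cluster 4 is highest among the HR- luminal clusters for Kcnn4 and Slc12a2, and cluster 3 is low for Aqp5, Kcnn4 and Slc12a2 but not for Clca3a2.

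In basal cells HU was accompanied by lower levels of several members in WT. Past 1.5-fold were 3 of 6 members in WT, where 5.59% of 5846 genes passed, and 0 of 6 in Brca2mut/WT, where 2.92% of 5863 genes passed. In WT the log2 ratio was -0.76 for Slc12a2 (95% interval -0.89 to -0.66), -0.67 for Aqp5 (-0.73 to -0.61) and -0.64 for Aqp3 (-0.74 to -0.56). In Brca2mut/WT these were -0.30 (-0.48 to -0.13), -0.58 (-0.68 to -0.48) and -0.03 (-0.21 to 0.14), Aqp5 lying just inside the threshold. Without pool 2 of WT HU, which supplied 414 of the 868 basal cells of that library, 0 members passed, and the ratios were -0.52 for Slc12a2, -0.47 for Aqp5 and -0.44 for Aqp3. Summed HR- luminal markers in basal cells were also lower with HU, 3939 to 3014 CPM in WT and 3225 to 2786 in Brca2mut/WT.

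The basal class was itself mixed. Of its cells, 26.8% in WT control, 16.5% in WT HU, 29.1% in Brca2mut/WT control and 36.9% in Brca2mut/WT HU lay outside the basal clusters 10, 11, 13 and 16. In those cells Slc12a2 had 340, 201, 221 and 129 CPM, against 20.5 to 65.4 CPM in the basal clusters, and Aqp5 had 731, 381, 552 and 301 CPM. With lineages set by clusters, the WT ratio was -0.56 for Slc12a2, -0.54 for Aqp5 and -0.62 for Aqp3. From WT control to HU, Aqp5 and Csn3 both fell in cluster 11, from 384 to 158 and from 1623 to 597 CPM. The same held in cluster 13 (236 to 141 and 1743 to 1095 CPM) and cluster 16 (260 to 174 and 891 to 480 CPM). Cluster 10 had 238 and 252 CPM of Aqp5 and 1188 and 1198 of Csn3. In Brca2mut/WT, cluster 11 had 274 and 120 CPM of Aqp5 but 766 and 853 of Csn3. The part that free RNA has in these ratios was not tested.

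Aqp3 belonged mainly to basal cluster 10. It had 340, 249, 210 and 388 CPM there in WT control, WT HU, Brca2mut/WT control and Brca2mut/WT HU, against 3.52 to 107 CPM in clusters 11, 13 and 16. Cluster 10 held 32.3%, 30.8%, 16.9% and 10.6% of the basal cells in that order. Over all libraries this cluster had 9.91 CPM of the basal marker Acta2, against 2251, 52.9 and 239 CPM in clusters 11, 13 and 16. Aqp3 was thus highest in the basal cluster with the least Acta2. The basal Aqp3 level of Brca2mut/WT control relative to WT control was -1.05 on the log2 scale (95% interval -1.20 to -0.92), and the share of cluster 10 was lower in both Brca2mut/WT libraries. Whether that share accounts for the ratio was not tested. By tag pool, basal Aqp3 ran from 27.3 to 218 CPM in WT control and from 58.0 to 175 CPM in WT HU, so that the pools of 1 library differed more than the libraries did.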

How the data were processed

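The authors aligned reads to mm10 (GRCm38) and counted UMIs with Cell Ranger (version 6.0.2 in the submitters' processing notes and 6.1.1 in the file headers), and list Seurat 4.0 and R 4.1.3. The deposited values are raw counts per gene and cell, without normalization. Tag counts were left out of gene totals. The filter on genes and mitochondrial UMIs was that of the methods. No doublet caller was run, and cells with several tags were left out in an alternative. Counts were summed per lineage and library, scaled to CPM and compared with exact Poisson and binomial intervals. Lineages and HU were tested with edgeR 4.0.16 (R 4.3.3, TMM scaling, filterByExpr), leaving out Krt14 and Areg, with DESeq2 1.42.0 as an alternative, after tests on simulated data. Clusters used scanpy 1.11.5 (2000 features, 30 components, resolution 0.8). Other tables were made with Python 3.11.15. Gene coordinates are from the GENCODE annotation of GRCm38.

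The members and lists were chosen with earlier results of these data known. The text names all 8 members, the list genes past 1.5-fold in HR- luminal cells, the 3 highest and 3 lowest of the called list genes in HR- luminal against basal cells, and the 5 genes most like Aqp5 and Slc12a2. Leaving out clusters with at least 30 CPM of Trp63 and tag pool 2 of both Brca2mut/WT libraries were alternatives chosen after seeing the data. A called list gene and some promoter windows are not reported here.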

Additional observations from a re-analysis of the deposited data

Results flagged for a closer look

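In HR- luminal cells 3 members had HU ratios of opposite sign in the genotypes with counting intervals that did not include 0. The log2 ratio in WT and in Brca2mut/WT was 0.030 and -0.46 for Slc12a2, 0.24 and -0.21 for Kcnn4, and -0.28 and 0.14 for Clca3a2. With 1 library per condition, the difference between the genotypes was not tested. The signs did not hold when single tag pools were left out. The WT ratio of Slc12a2 was -0.26 and -0.08 without pools 1 and 3 of the control and -0.12 without pool 4 of HU, and it was -0.21 with the wider cell filter. Without pool 2 of Brca2mut/WT control the Brca2mut/WT ratio was 0.56 for Slc12a2, 0.11 for Kcnn4 and -0.04 for Clca3a2, and the last was -0.09 without pool 3 of Brca2mut/WT HU.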

How the results depend on the processing

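The counts of members called between lineages stayed at 6 to 8 for HR- luminal against basal cells and at 6 to 7 for HR- against HR+ luminal cells over 16 alternatives each, and the count for HU over both genotypes stayed at 0 over 11. Scnn1a lost its call against basal cells in 4 alternatives, and Atp1b1 passed between the luminal lineages only with the wider cell filter. In HR- luminal cells 0 members passed 1.5-fold with HU in WT under each of 21 alternatives. In Brca2mut/WT the count was 0 or 1 when tag pools were left out in turn, the 1 being Slc12a2, and 2 at the lower fold threshold. In basal cells of WT the count of 3 became 0 with no upper limit on genes and under 10% mitochondrial UMIs, 1 with doubled thresholds, 5 at the lower fold threshold, 0 at the higher one, and 0 to 4 with pools left out. In basal cells of Brca2mut/WT the count of 0 became 1 with cells of 1 tag, with at least 5000 UMIs, with TMM scaling, with a minimum of 5 CPM, at the lower fold threshold and without pool 2 of both libraries, and 0 to 1 with pools left out. The cause was not tested. Single ratios of HU against control in HR- luminal cells left their counting interval in many alternatives, and the sign changed in at least 1 alternative for Slc12a2 and Atp1b1 in WT and for Aqp5, Slc12a2, Kcnn4 and Clca3a2 in Brca2mut/WT.

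No paired analysis of HU or genotype was possible because each group had 1 library, and the tags carry no labels. For HU over both genotypes, leaving out a library could not be fitted, since it leaves 0 residual degrees of freedom. Depth limited Cftr, and the 123 to 176 HR+ luminal cells per library limited that lineage.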

Other observations

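Cycling HR- luminal cells, taken as those with at least 500 CPM summed over 5 cycling markers, numbered 216 in WT control, 178 in WT HU, 227 in Brca2mut/WT control and 162 in Brca2mut/WT HU. Kcnn4 was higher in them than in the other HR- luminal cells of the same library in 4 of 4 libraries, with log2 ratios of 0.61, 0.30, 0.29 and 0.16, and Clca3a2 was lower in 4 of 4, with -0.18, -0.41, -0.14 and -0.42. Slc12a2 had 0.03, -0.56, -0.59 and -0.24, and Aqp5 had 0.18, -0.20, 0.17 and 0.17. Atp1b1 was also lower in 4 of 4, with -0.10, -0.35, -0.07 and -0.38, and so was Scnn1a, with -0.56, -1.27, -0.76 and -0.95. Scnn1a was near the floor, at 0.458 to 1.86 CPM in cycling cells. Ratios were of CPM plus 1, which draws values at such a level towards 0. The interval included 0 for Atp1b1 in both control libraries and for Scnn1a in WT control. The ratios have counting intervals but were not tested over libraries. How many of all genes kept 1 sign in every library was not counted.

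The highest Cftr level of the 21 clusters lay in a small one, which need not hold most of the Cftr UMIs. Cluster 20, with 103 cells, had 9.46 CPM of Cftr, against a median of 0.0710 CPM over the HR- luminal clusters, and only 161 CPM of Aqp5. The Cftr UMIs behind this were few, since all kept cells together had 56 and 1 cell had 5. The cluster was low in HR- luminal markers (1113 CPM of Csn3), and 24 of its cells were HR+ luminal. Aqp3 in HR- luminal cells of Brca2mut/WT HU came mostly from 1 cell, with 43 of 59 UMIs.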
